A study of Sus scrofa with 36 samples.

Results

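FABP7, ARG2, HPD and CLDN3 are 4 genes chosen by their measured mammary gland levels, which were high in pigs given both estrogen and haloperidol. They are 4 of the 6360 genes that the array could name by a probe set of that gene alone, and they have 7 of its 20792 probe sets. Where a gene had several probe sets, it was read from the brightest one on average over the 36 arrays. Because the choice used the response to estrogen and haloperidol, the differences in that response are given below as a description, without a test. The label "needing both" held to different degrees: FABP7 and ARG2 came closest, although FABP7 was also high in 1 library and ARG2 in 2 libraries of animals labelled as given no such pair. By its group levels HPD stood out mainly when progesterone was added, and CLDN3 mainly without progesterone. None of the 20 tests of the 4 genes on progesterone passed, so a dependence on progesterone is not established.

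The study asked how ovarian steroids and prolactin act together on growth and gene expression of the mammary gland. It used female Yucatan miniature pigs of 5 months, around puberty, with 4 pigs in each of 9 groups. In the 4 sham animals the ovaries were left in place and saline was given over 13 days. Ovaries were removed from the remaining 32, and each of these was first given bromocriptine for 8 days, an agonist of dopamine receptors under which prolactin falls. In the last 5 days 4 groups stayed on bromocriptine, alone (B), with estrogen (BE), with progesterone (BP) or with both steroids (BEP). Another 4 groups were switched to haloperidol, which blocks dopamine receptors so that prolactin rises, again alone (H), with estrogen (HE), with progesterone (HP) or with both steroids (HEP). All animals, sham included, received the thymidine analog BrdU 24 h before the end. Prolactin was thus altered through dopamine receptors of the whole animal, and hormone concentrations were not analysed here. Sham differs from the other groups in its ovaries and in having had no bromocriptine.

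Prolactin acts on mammary epithelium through JAK2 and STAT5 and drives secretory differentiation, while estrogen acts through its nuclear receptor and drives duct growth and cell division. The 4 genes have unlike roles. FABP7 is the fatty acid binding protein first known from brain, a small carrier of long chain fatty acids inside cells. ARG2 is the mitochondrial arginase, which splits arginine into ornithine and urea, and ornithine feeds the synthesis of polyamines and proline. HPD converts 4-hydroxyphenylpyruvate to homogentisate in the breakdown of tyrosine. CLDN3 is a claudin, a membrane protein of the tight junctions that seal epithelial cells to each other.

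Levels are given as the deposited RMA values, read as log2, and a difference of 1 is then a doubling of the signal. Array medians lay between 7.83 and 7.91, and the lower quartile of all values was 5.98. The keratins and adhesion molecules that define mammary epithelium were clearly present, with means over the arrays of 12.5 for KRT8, 10.9 for KRT18 and 11.6 for EPCAM. A pair of libraries stood apart from their groups: those labelled BP A and B A correlated with the mean of their group's other animals at 0.903 and 0.932, the lowest of the 36. The BP A library had 16.07 for the summed level of the milk protein list, close to but below the HE animals (16.17 to 16.38). That value lay within the ranges of HEP (14.41 to 16.18) and HP (14.83 to 16.13), and H reached 15.92, so this list does not single out HE. The B A library had the highest summed skeletal muscle markers of all arrays (16.48) and the lowest summed luminal markers (13.68). The BP A library was also near the HE animals in its markers of dividing cells and of adipocytes, given below, and whether its label is right could not be settled here. Every BP value that includes it carries this doubt. Results that rest on these libraries are given with and without them. In such bulk tissue, fewer cells of a type and less RNA per cell cannot be told apart.

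FABP7 was high in nearly all animals given both agents and low in nearly all others. The HE animals A to D had 8.90, 7.46, 7.87 and 6.95, and the HEP animals had 7.71, 7.52, 4.67 and 6.74. Of these 8, HEP C alone lay near the animals not given both. With bromocriptine, FABP7 stood at 3.34, 4.56, 4.02 and 3.88 in B, at 4.12, 2.96, 3.56 and 3.19 in BE, and at 3.79, 3.09, 3.45 and 3.88 in BEP. With haloperidol but no estrogen, it stood at 2.76, 3.001, 3.42 and 3.59 in H and at 3.91, 2.36, 2.41 and 4.14 in HP. These 5 groups lay in one low band, and so did sham, with 4.11, 4.37, 4.47 and 2.42. The BP animals had 8.52, 3.37, 4.58 and 2.82, so the library labelled BP A had a level of the HE range while its 3 group mates did not. FABP7 is a dim probe set: 28 of its 36 values lay below the lower quartile of all values, and whether it was detected was not measured, so the size of a fold against the low groups is uncertain.

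The order of the FABP7 means was HE (7.79 ± 0.83, SD, n = 4), HEP (6.66 ± 1.39), BP (4.82 ± 2.57), B (3.95 ± 0.50), sham (3.84 ± 0.96), BEP (3.55 ± 0.36), BE (3.46 ± 0.50), HP (3.20 ± 0.96) and H (3.19 ± 0.38). Every group in this order overlapped the next one in its range. HE was higher than B by 3.84 ± 0.76 (SE of the fit over all 36 arrays), a 14.4-fold difference, and higher than H by 4.60 ± 0.76. HEP was higher than BP by 1.84 ± 0.76, which became 3.07 ± 0.59 without BP A and 1.17 without BP D. The highest value among the 28 animals not given both was the 8.52 of BP A, and 1 of the 8 HE and HEP animals exceeded it. Without BP A that highest value was 4.58, and 8 of 8 exceeded it, HEP C by little at 4.67.

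ARG2 was high in all 8 animals given both agents, with little spread. The HE animals had 9.90, 10.28, 9.76 and 10.18, and the HEP animals had 9.78, 9.47, 9.46 and 9.15. It was also high in 2 libraries labelled as animals given neither. The B animals had 9.90, 6.16, 6.08 and 6.22, and the BP animals had 10.16, 5.98, 6.81 and 6.02, so in both groups animal A stood more than 3 log2 units above its mates. The remaining groups were low: BE had 6.46, 6.27, 6.58 and 6.25, BEP had 6.84, 7.15, 7.33 and 7.82, H had 7.39, 6.83, 5.88 and 6.50, and HP had 7.71, 5.35, 6.69 and 7.58. Sham stood at 6.71, 7.49, 7.46 and 7.69, inside the range of the low groups.

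The order of the ARG2 means was HE (10.03 ± 0.25, SD, n = 4), HEP (9.46 ± 0.26), sham (7.34 ± 0.43), BEP (7.29 ± 0.41), BP (7.24 ± 1.98), B (7.09 ± 1.88), HP (6.83 ± 1.09), H (6.65 ± 0.63) and BE (6.39 ± 0.16). HEP and sham were the only neighbours in this order whose ranges did not overlap. HE was higher than B by 2.94 ± 0.68, 7.68-fold, and HEP was higher than BP by 2.22 ± 0.68, 4.67-fold. Without B A the first difference was 3.88 ± 0.60, and without BP A the second was 3.19 ± 0.59. The BP A value of 10.16 was exceeded by 2 of the 8 HE and HEP animals. Without B A and BP A the highest value among the animals not given both was 7.82, and 8 of 8 exceeded it, the lowest of them at 9.15.

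HPD was highest in the animals given haloperidol and both steroids. The HEP animals had 9.97, 10.59, 8.48 and 8.95, while the HE animals had 6.40, 9.53, 7.24 and 8.16. The HEP values were all above those of every group given bromocriptine, haloperidol without estrogen, or saline. The HE values were not: the B animals had 5.56, 7.80, 6.68 and 7.64, the H animals 6.55, 6.93, 6.85 and 5.07, and sham 8.00, 6.47, 5.82 and 8.05. HPD was lowest in BE, with 4.52, 5.79, 5.41 and 4.78. With progesterone, it stood at 6.62, 7.09, 5.37 and 7.61 in BP, at 6.98, 6.04, 6.81 and 6.53 in BEP, and at 6.91, 5.94, 6.18 and 6.57 in HP. These 3 groups overlapped one another.

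The order of the HPD means was HEP (9.50 ± 0.96, SD, n = 4), HE (7.83 ± 1.34), sham (7.08 ± 1.12), B (6.92 ± 1.03), BP (6.67 ± 0.96), BEP (6.59 ± 0.41), HP (6.40 ± 0.43), H (6.35 ± 0.87) and BE (5.13 ± 0.58), and each group overlapped the next. HEP was higher than BP by 2.82 ± 0.60, 7.08-fold, and higher than HP by 3.10 ± 0.60. HE was higher than B by 0.91 ± 0.60, as a description. Without B A it was 0.46 ± 0.63, without HE B it was 0.35 and without HE A it was 1.39. HE was higher than BE by 2.71 ± 0.60, and a part of that distance was the low level of BE, which lay below B by 1.79 on the log2 scale.

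CLDN3 was well expressed in every animal, and its highest group was HE. The HE animals had 9.60, 10.61, 10.17 and 10.63, and the HEP animals had 9.79, 9.44, 9.17 and 8.92. The HEP range lay inside that of the animals given progesterone without estrogen, since BP had 9.68, 8.93, 8.72 and 9.59 and HP had 9.57, 8.87, 8.94 and 9.01, apart from HEP A, which was the highest of the 12. Without steroid, B had 7.35, 9.00, 9.03 and 9.75, and H had 9.20, 8.74, 9.17 and 8.45. Estrogen with bromocriptine went with the lowest levels, 7.77, 8.43, 8.40 and 7.67 in BE and 8.34, 8.41, 8.09 and 8.35 in BEP. Sham had 8.52, 8.12, 9.09 and 8.34, near the BEP animals.

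The order of the CLDN3 means was HE (10.25 ± 0.48, SD, n = 4), HEP (9.33 ± 0.37), BP (9.23 ± 0.48), HP (9.10 ± 0.32), H (8.89 ± 0.36), B (8.78 ± 1.02), sham (8.51 ± 0.42), BEP (8.30 ± 0.14) and BE (8.07 ± 0.40), and each group overlapped the next. HE was higher than B by 1.47 ± 0.34, 2.78-fold, and by 0.99 ± 0.29 without B A, whose value of 7.35 was the lowest of all 36. HEP and BP differed by 0.10 ± 0.34, as a description. The highest value among the animals not given both was 9.75, in B D, and 4 of the 8 HE and HEP animals exceeded it.

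**Figure D1:**
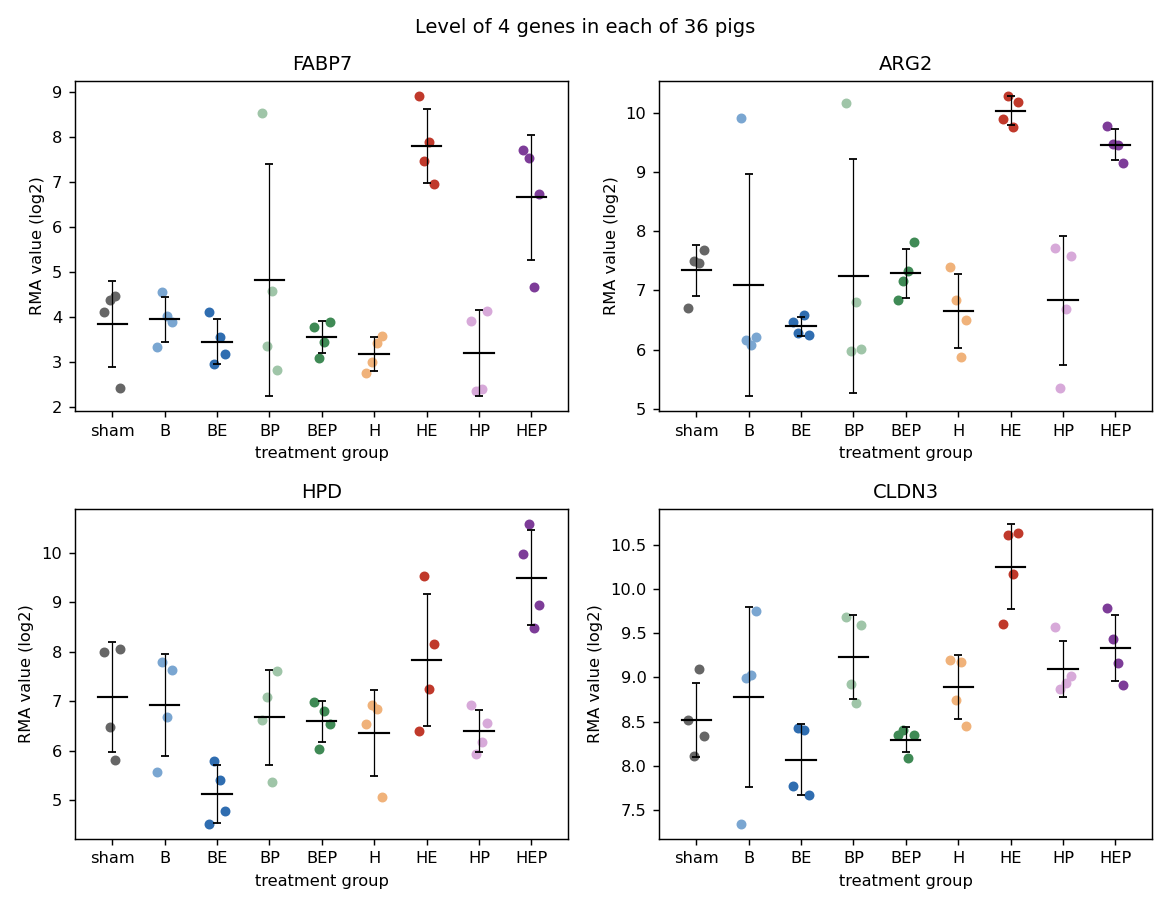
RMA value (log2) of FABP7, ARG2, HPD and CLDN3 in each of 36 pigs by treatment group, with the group mean (line) and SD (error bar). FABP7 and ARG2 are high in HE and HEP and in single animals of BP or B, HPD is highest in HEP, and CLDN3 is highest in HE.

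In all 4 genes the change with both agents was larger than the sum of the changes with each agent, which the choice of the genes used. For FABP7, estrogen alone gave -0.49 and haloperidol alone -0.76 against B, a sum of -1.25, while both gave 3.84 (SE of each difference 0.76). Neither agent alone thus raised the level that both together raised. For ARG2 the sum of the single changes was -1.14 and the joint change 2.94. That negative sum rested on B A: without it estrogen alone gave 0.24, haloperidol alone 0.50 and both 3.88. For HPD the sum was -2.36, most of it from BE, and the joint change 0.91. For CLDN3 the sum was -0.60 and the joint change 1.47. These differences all share the B animals.

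With progesterone present, the same comparison runs against BP. The sums of the single changes were -2.89 for FABP7, -0.36 for ARG2, -0.35 for HPD and -1.06 for CLDN3, and the joint changes were 1.84, 2.22, 2.82 and 0.10. The BP means of FABP7 and ARG2 include BP A, at 8.52 and 10.16, and their negative sums rested on it. Without BP A, estrogen and haloperidol alone gave -0.04 and -0.39 for FABP7, and 1.02 and 0.56 for ARG2. The joint changes were then 3.07 and 3.19. Averaged over the animals with and without progesterone, the interaction (the estrogen change under haloperidol minus that under bromocriptine) was 4.91 ± 0.76 for FABP7, 3.33 ± 0.68 for ARG2, 3.23 ± 0.60 for HPD and 1.62 ± 0.34 for CLDN3. Without B A and BP A it was 4.39 ± 0.57, 2.38 ± 0.37, 3.46 ± 0.61 and 1.78 ± 0.28. The interaction of ARG2 with progesterone present was 2.59 ± 0.97 and fell to 1.61 without BP A.

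The same values order the 4 genes among the 6360. By the size of a positive interaction FABP7 ranked 1, ARG2 3, HPD 4 and CLDN3 70. By the difference between HE and B they ranked 39, 66, 508 and 227, and by that between HEP and BP 59, 29, 10 and 2830. The interaction exceeds the joint change where the single-agent sum is negative, and that sum was the larger part in HPD without progesterone and in FABP7 and CLDN3 with it. For FABP7 this rested on BP A: without that library its joint change with progesterone was 3.07, the larger part of an interaction of 3.49. Of the 4, only FABP7 had all HE animals above all B, BE and H animals, which 5.66% of genes had. Only HPD had all HEP animals above all BP, BEP and HP animals, which 1.48% of genes had. None had all 8 HE and HEP animals above the 28 others, which 3 genes (0.0472%) had. These counts use the contrast by which the genes were chosen, and nothing is read from them.

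**Figure D2:**
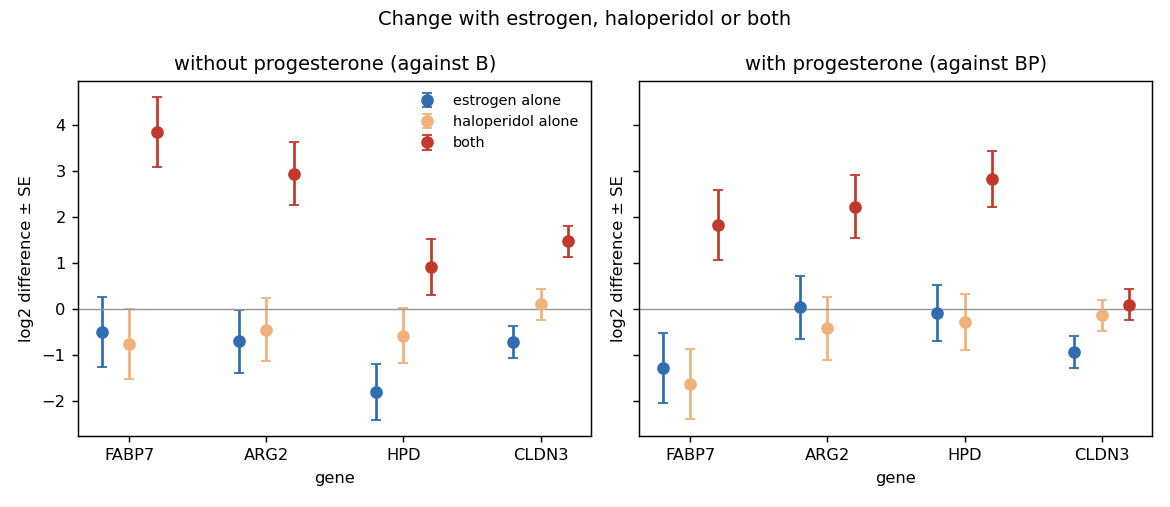
Difference in RMA value (log2 ± SE) of each gene with estrogen alone, haloperidol alone or both, against B (left) and, with progesterone, against BP (right). Single-agent changes sit near or below 0, and the joint change ranges from 0.10 for CLDN3 with progesterone to 3.84 for FABP7 without it.

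Whether progesterone alters the response was not used in the choice and could be tested. HPD was higher in HEP than in HE by 1.66 ± 0.60 (95% interval 0.43 to 2.89), and CLDN3 was lower in HEP than in HE, at -0.93 ± 0.34 (-1.62 to -0.23). Neither passed the test over all probe sets, with adjusted p = 0.294 and 0.304 (limma, Benjamini-Hochberg), where 0.476% of probe sets did. In HPD the 4 HEP animals were not all above the HE animals, since HE B had 9.53, and in CLDN3 the HEP animal A lay above HE A. FABP7 differed between HEP and HE by -1.14 ± 0.76 (-2.69 to 0.42) and ARG2 by -0.57 ± 0.68 (-1.96 to 0.83), so a fall of FABP7 by a few fold and no change are both inside the interval. Without B A and BP A the adjusted p of CLDN3 was 0.0952.

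Averaged over the groups with and without it, progesterone changed FABP7 by -0.04 ± 0.38, ARG2 by 0.16 ± 0.34, HPD by 0.73 ± 0.30 and CLDN3 by -0.01 ± 0.17. None of these was called, and 0.0914% of probe sets were. Progesterone shifted the estrogen change by 1.66 ± 0.60 in HPD (adjusted p = 0.294, limma) and by -0.68 ± 0.34 in CLDN3 (adjusted p = 0.498, limma), -0.96 ± 0.76 in FABP7 (adjusted p = 0.713, limma) and -0.00225 ± 0.68 in ARG2, where 0.25% of probe sets were called. In HPD both backgrounds entered this shift. Under bromocriptine BE was the lowest group and BEP was not, with 5.13 and 6.59 as their means. Under haloperidol HEP lay above HE, with means of 9.50 and 7.83. Progesterone shifted the haloperidol change by -1.05 ± 0.76 in FABP7, -0.72 ± 0.68 in ARG2, 0.25 ± 0.60 in HPD and -0.70 ± 0.34 in CLDN3. The 3-way interactions were -0.37 ± 1.52, -1.49 ± 1.37, -0.10 ± 1.21 and -0.91 ± 0.68, too wide to place the sign. In the last 2 sets of tests limma called 0 probe sets, with 971 and 918 at an unadjusted p under 0.05. In all, limma made 20 tests of the 4 genes on progesterone and called 0, with 5 at an unadjusted p under 0.05. Those 5 were all in HPD or CLDN3. The tests of a gene are not separate results, since HEP minus HE combines the other contrasts.

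The animals with intact ovaries lay within the range of the ovariectomized animals in each of the 4 genes. Sham minus the mean of the 8 ovariectomized groups was -0.74 ± 0.57 for FABP7 (95% interval -1.90 to 0.43), -0.29 ± 0.51 for ARG2, 0.16 ± 0.45 for HPD (-0.76 to 1.08) and -0.48 ± 0.26 for CLDN3 (upper end 0.04). None was called (lowest adjusted p = 0.422, for CLDN3, limma), and 0.707% of probe sets were. That mean holds HE and HEP, whose high levels chose the genes, so these values describe and support nothing. Beside the mean of the 6 other ovariectomized groups, a comparison chosen after seeing the data, sham differed by 0.15 ± 0.58 in FABP7, 0.42 ± 0.52 in ARG2, 0.74 ± 0.46 in HPD and -0.21 ± 0.26 in CLDN3, so the sign for FABP7 and ARG2 depends on HE and HEP. HE lay above sham by 3.95 ± 0.76 in FABP7, 2.69 ± 0.68 in ARG2 and 1.74 ± 0.34 in CLDN3, and HEP lay above sham by 2.41 ± 0.60 in HPD.

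For 2 of the genes other probe sets were present. ARG2 had 3, which differed from one another. The second, with a mean of 6.96, was also highest in HE (8.40 ± 0.46, SD, n = 4) and HEP (8.24 ± 0.21), and the B A and BP A libraries again stood high at 8.63 and 8.35. The third, with a mean of 6.90, did not show the pattern: HE had 6.86 ± 0.44, HEP had 6.91 ± 0.24, and its highest group was HP at 7.30. Its interaction was 0.46 ± 0.29, against 2.08 ± 0.48 for the second and 3.33 ± 0.68 for the one used. Which transcripts each probe set reads was not analysed here. CLDN3 had a second, dimmer probe set with a mean of 6.29, which was highest in HE (7.15 ± 0.24) and next in HEP (6.76 ± 0.16). Its interaction was 1.01 ± 0.29, and its difference between HEP and BP, 0.50 ± 0.29, was larger than the 0.10 ± 0.34 of the one used. FABP7 and HPD rest on 1 probe set each.

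**Figure D3:**
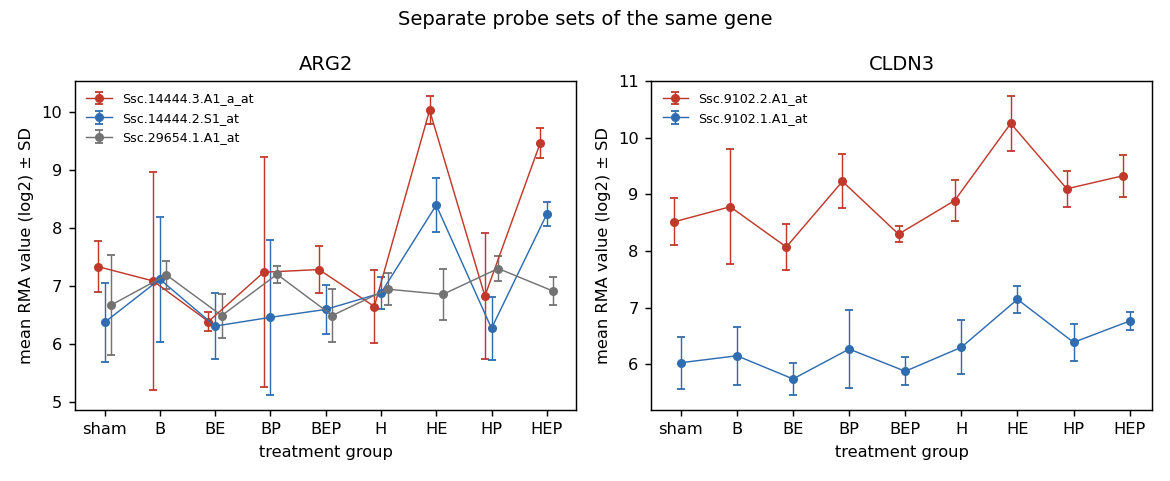
Mean RMA value (log2 ± SD, 4 pigs per group) of each probe set of ARG2 (3) and CLDN3 (2) over the 9 groups. The upper pair of ARG2 probe sets in HE and the CLDN3 pair peak there, while the remaining ARG2 probe set lies between 6.49 and 7.30 in every group.

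The genes around each of the 4 in its pathway were counted without the 4 themselves. Of the 65 measured genes of 4 lists (fatty acid binding and uptake, arginine and polyamine metabolism, phenylalanine and tyrosine breakdown, tight junctions), 4 rose and 3 fell in the interaction of estrogen with haloperidol (limma, adjusted p under 0.05). That is 10.8%, beside 8.82% of all genes (5.3% higher and 3.52% lower), and the median interaction was 0.04 for both. With estrogen on average 16 rose and 13 fell, 44.6% in all, beside 38.7% of all genes (20.1% higher and 18.6% lower). With haloperidol 9 rose and 2 fell, 16.9% in all, beside 8.22% of all genes (5.86% higher and 2.36% lower).

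Among the fatty acid carriers and enzymes, 16 were measured, and 1 rose and 1 fell in the interaction. FABP6, the bile acid binding relative of FABP7, rose by 1.13 ± 0.33 (adjusted p = 0.0354, limma), with 6.16 ± 1.00 in HE and 6.18 ± 0.41 in HEP against 4.84 in B. Like FABP7 it is a dim probe set, with a mean of 5.18, and the loss of any of 15 single arrays ended the call (limma, adjusted p then 0.0503 to 0.0623). ACSL1, which activates long chain fatty acids and is abundant in fat tissue, fell, with an interaction of -1.16 ± 0.30 (adjusted p = 0.0205, limma), from 11.27 in B to 9.40 ± 0.35 in HE. The abundant carriers did not pass: the interaction was 0.42 ± 0.27 for FABP3, the heart type carrier that is also found in mammary gland, -0.32 ± 0.16 for FABP4, the adipocyte carrier, and 0.03 ± 0.12 for FABP5. ACSL6 had an interaction of 4.47 ± 1.73 that did not pass (adjusted p = 0.103, limma). It stood at 11.37 ± 0.16 in HE, but its SD in H, BP and HEP was above 3. With estrogen on average CRABP2, a retinoic acid carrier, rose by 0.82 ± 0.15 (adjusted p = 0.000106, limma).

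Of the arginine, polyamine and proline genes 20 were measured, and 2 rose and 1 fell. ASS1, which makes argininosuccinate on the route to arginine, rose by 1.78 ± 0.46 (adjusted p = 0.0195, limma), with 9.79 ± 0.45 in HE and 8.74 ± 0.80 in HEP, against 7.78 in B and 7.67 in sham. SRM, the spermidine synthase, rose by 1.38 ± 0.33 (adjusted p = 0.0122, limma), from 8.78 in B and 10.07 in H to 11.47 in HE. SRM also rose with haloperidol on average, by 1.72 ± 0.16 (adjusted p = 6.04e-08, limma). SAT1, which acetylates polyamines for breakdown and export, fell, with -0.51 ± 0.14 (adjusted p = 0.0228, limma, and 0.0561 without B A and BP A). ODC1, which turns ornithine into putrescine, rose with estrogen by 1.10 ± 0.14 (adjusted p = 8.85e-07, limma), and its interaction of 0.62 ± 0.29 did not pass. ARG1, the cytosolic arginase, was dim, with a mean of 4.66 and an interaction of 0.87 ± 0.50 that did not pass. The list's median change with haloperidol was 0.28, beside 0.03 over all genes.

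In phenylalanine and tyrosine breakdown 14 genes were measured and 1 rose. TAT makes the substrate of HPD from tyrosine, and it rose by 1.54 ± 0.46 (adjusted p = 0.0361, limma). It had 3.88 ± 0.68 in HE and 4.42 ± 1.25 in HEP and group means of 2.30 to 3.09 elsewhere, values near the bottom of the array's range, and the loss of any of 12 single arrays ended the call (limma, adjusted p then 0.0528 to 0.0649). FAH, which acts at the end of the same route, did not pass in the interaction (-1.19 ± 0.46, adjusted p = 0.104, limma), and it fell with estrogen on average (-0.84 ± 0.23, adjusted p = 0.00519, limma). Its means were 8.90 in HE and 9.30 in HEP against 11.02 in B, so its levels lay on the opposite side to those of HPD. DDC, the aromatic amino acid decarboxylase, rose with haloperidol by 0.80 ± 0.23 (adjusted p = 0.0271, limma) and was highest in HEP, at 7.84 ± 0.59 against 4.81 ± 0.48 in HE.

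Of the tight junction genes 15 were measured, and 1 fell. That was CLDN5, the claudin of endothelium, with an interaction of -1.53 ± 0.44 (adjusted p = 0.0316, limma) and means of 6.06 in HE and 8.35 in H. The loss of any of 7 single arrays ended the call (limma, adjusted p then 0.0506 to 0.0584) and without B A and BP A together (0.0661). The epithelial claudins closest to CLDN3 did not pass: CLDN4 had 0.33 ± 0.35 and CLDN7 had 1.04 ± 0.41 (adjusted p = 0.112, limma). CLDN7 rose with estrogen on average by 0.66 ± 0.21 (adjusted p = 0.0128, limma), while CLDN3 had -0.01 ± 0.17 there. With haloperidol limma called none of the 15, and 3 had an unadjusted p under 0.05.

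**Figure D4:**
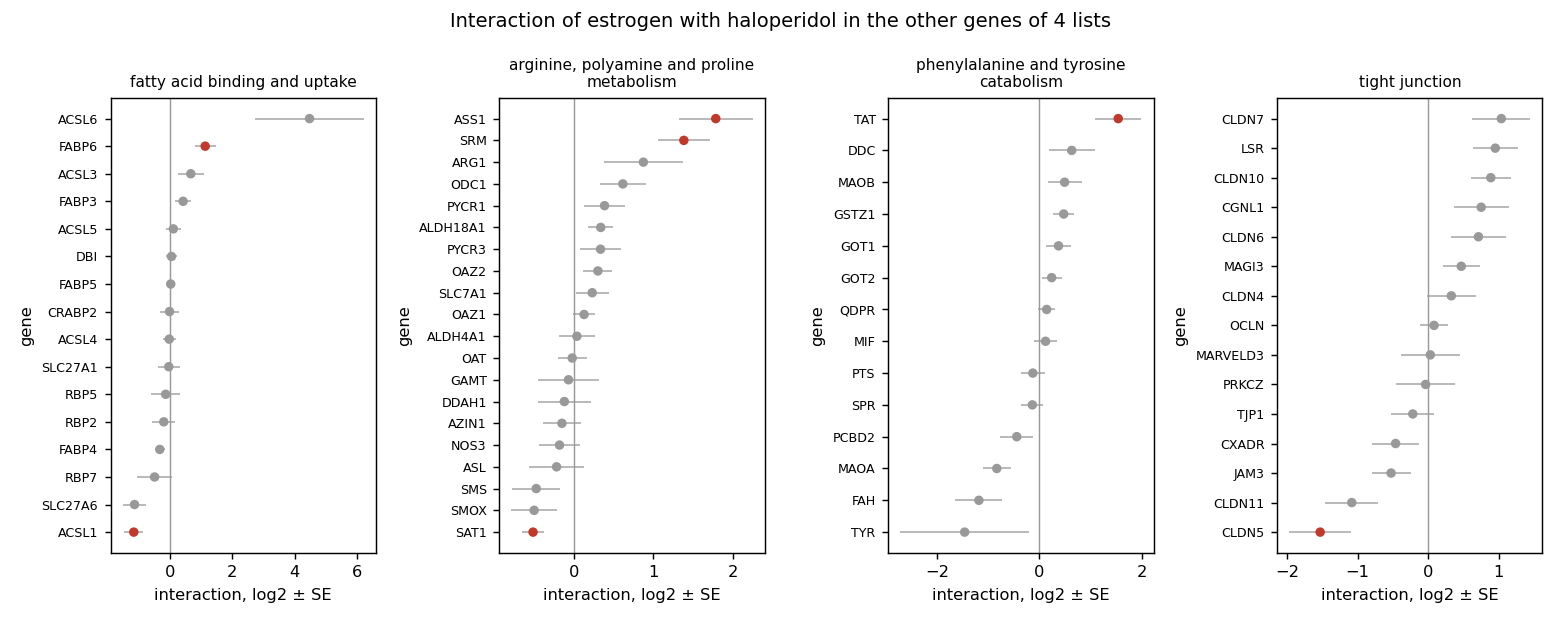
Interaction of estrogen with haloperidol (log2 ± SE) for the measured genes of 4 lists other than FABP7, ARG2, HPD and CLDN3, with red points for an adjusted p under 0.05 (limma). The 7 red points lie on both sides of 0, with FABP6, ASS1, SRM and TAT above it and ACSL1, SAT1 and CLDN5 below it.

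Genes of milk and of prolactin signalling were set beside the 4 genes. Of 15 measured genes for milk proteins and secretion, 14 rose with haloperidol on average, beside 5.86% of all genes. Their median was 3.15, and limma called none in the interaction (4 at an unadjusted p under 0.05). CSN2, which encodes beta-casein, had 11.83 ± 0.31 in H, 12.27 ± 0.09 in HE and 11.99 ± 0.38 in HP, so its level under haloperidol was high with and without estrogen. WAP, another milk protein, had 10.32 ± 2.68 in H and 13.01 ± 0.23 in HE, and its interaction of 1.45 ± 1.51 did not pass. FABP7 and ARG2 in H and HP overlapped the bromocriptine groups instead. Both STAT5 genes rose in the interaction, STAT5A by 1.06 ± 0.30 (adjusted p = 0.0279, limma) and STAT5B by 1.45 ± 0.34 (adjusted p = 0.0116, limma), and JAK2 fell, with -1.35 ± 0.34 (adjusted p = 0.0169, limma). STAT5B had 10.21 ± 0.28 in HE and 9.54 ± 0.58 in HEP, against 8.16 in B, 8.07 in BE and 8.56 in H.

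Markers of other cells moved with the same groups, and their part in the levels of the 4 genes was not tested. Over all genes, limma called 5.3% higher in the interaction and 20.1% higher with estrogen. Of 9 measured genes of dividing cells 4 rose in the interaction and 9 rose with estrogen, and their summed level (log2) was 12.99 to 13.50 in the HE and HEP animals. It was 12.37 to 12.72 in BE and 12.01 to 12.65 in BEP, where FABP7 and ARG2 were low, and 13.20 in the library labelled BP A, where both were high. In sham it was 12.56 to 13.19, with low FABP7 and ARG2. In B A it was within 10.60 to 11.24, the range of its group, while ARG2 was high there.

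Over all genes, limma called 3.52% lower in the interaction and 18.6% lower with estrogen. Of 7 measured adipocyte markers 6 fell in the interaction, with a median of -1.85, and 7 fell with estrogen. Their summed level was 10.78 to 11.68 in HE and 10.63 to 12.16 in HEP, against 11.20 to 14.00 in the other 24 ovariectomized animals, where BP A had the 11.20. Of 11 measured luminal epithelial markers limma called none in the interaction (1 at an unadjusted p under 0.05), and their summed level was 14.52 to 15.08 in HE and HEP, 13.68 to 15.14 in the other 24, and 14.87 to 15.23 in sham. The lowest, 13.68, was B A, the library with the lowest CLDN3. Skeletal muscle markers summed to 9.33 to 10.37 in HE and HEP. They reached 16.48 in B A, 15.08 in H C, 13.86 in BP A, 13.60 in HP C and 13.18 in HP A. In these libraries ARG2 was 9.90, 5.88, 10.16, 6.69 and 7.71, in the same order. On average 7 of the 12 muscle markers lay below the lower quartile. Of 9 measured leukocyte markers 3 fell in the interaction, with a median of -0.85 (6 at an unadjusted p under 0.05), and their summed level was 12.40 to 13.24 in HE and HEP and 12.59 to 13.88 in the other 24. Of 7 fibroblast markers 1 fell, and the sums were 13.65 to 13.93 and 13.75 to 14.30. Of 8 endothelial markers limma called none (3 at an unadjusted p under 0.05), and the sums were 11.94 to 12.77 and 12.08 to 13.58. Of 5 measured markers of Schwann cells and nerve, which can express FABP7, 1 rose in the interaction, with a median of -0.27. That is 20%, beside 5.3% of all genes. The sums were 9.83 to 10.44 in HE and HEP and 9.85 to 11.34 in the other 24.

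**Figure D5:**
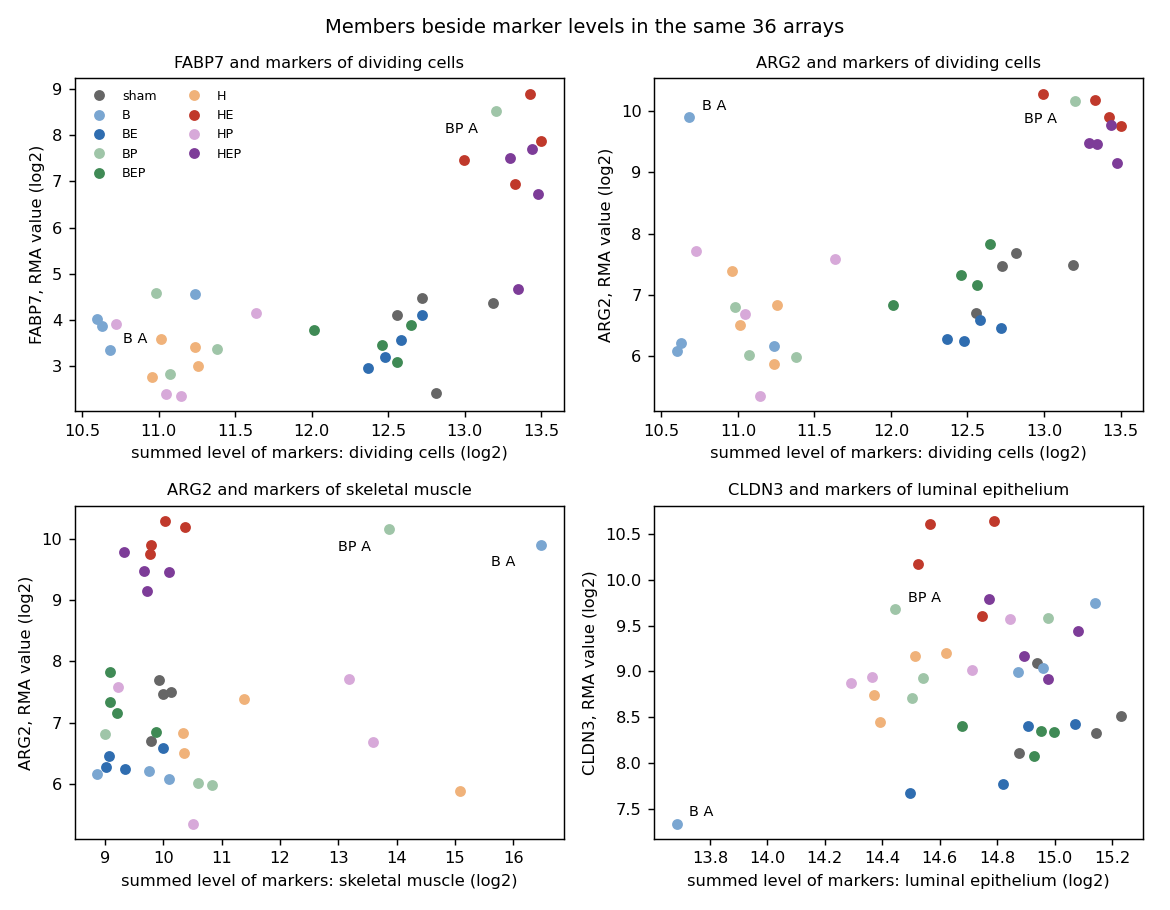
FABP7 and ARG2 (RMA value, log2) against the summed level of markers of dividing cells, ARG2 against markers of skeletal muscle, and CLDN3 against markers of luminal epithelium, for 36 arrays coloured by group. BE and BEP animals lie below all HE and HEP animals in division markers, sham overlaps HE, and FABP7 and ARG2 are low in BE, BEP and sham. BP A lies with HE and HEP, and B A has high ARG2 at the highest muscle marker level.

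By correlation over the 36 arrays, each gene had its own nearest genes. FABP7 was most like SPA17 (r = 0.872), AMT (0.853), SLC35B2 (0.834), UCHL3 (0.831) and BRCA1 (0.83). ARG2 was most like UCHL3 (0.879), MRPS30 (0.868), NPM3 (0.853), DNAJB11 (0.848) and PPA1 (0.846), so UCHL3 stood in both lists. HPD had weaker neighbours, ATP2C2 (0.768), TMC5 (0.746), TAT (0.719), FABP6 (0.709) and FAM84A (0.709), 2 of which are the called pathway genes above. CLDN3 was most like TYRO3 (0.883), CKMT1A (0.874), KCNN4 (0.862), MAPK13 (0.858) and LRRC1 (0.857). These correlations run over animals that share treatments, and they describe the arrays only.

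Within groups the 4 genes did not vary as one set. The deviations of the 36 animals from their group means correlated at 0.58 between HPD and CLDN3 (Spearman 0.57), and at 0.52 (0.54) without B A and BP A. Between FABP7 and ARG2 the correlation was 0.46 (Spearman 0.28), and 0.25 (0.25) without those libraries. The other 4 pairs lay between -0.19 and 0.17, and between -0.17 and 0.21 without those libraries, where ARG2 with CLDN3 turned from -0.19 to 0.21, ARG2 with HPD from -0.17 to 0.08 and FABP7 with CLDN3 from 0.17 to -0.09. Animal HEP C, the lowest of its group in FABP7, was also the lowest in HPD at 8.48, but in ARG2 (9.46) it was level with HEP B.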

How the data were processed

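Total RNA of the mammary gland of 36 pigs was turned into biotin-labelled cRNA, and each animal was read on 1 porcine array. The deposited log2 values are probe set summaries made by the authors with RMA, per the submitters' processing notes. The base of the logarithm is not stated, and they were read as log2 from their range of 1.552 to 13.74. They were used without further normalization. Of 20792 probe sets 9149 had 1 gene symbol, 178 several and 11465 none here. RMA borrows strength over arrays and compresses low values, so folds of dim probe sets are uncertain.

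A model with 1 mean per group was fitted to all 36 arrays with limma 3.58.1 in R 4.3.3 (27 residual and 4.16 prior degrees of freedom). P-values were two-sided, and in each contrast the Benjamini-Hochberg adjustment ran over all probe sets, with 0.05 as the threshold. Intervals are 95%. The model was run on simulated data, independent normal values with equal spread in all groups and a planted shift. Those data held no outlying libraries such as B A and BP A, so that run cannot show how the model handles them. Groups came from the treatment labels, which give 4 separate pigs a group. The genes and lists were chosen with earlier results of these data known. Named beside the 4 genes are up to 4 called genes of each list in the interaction, up to 3 in each average effect, fixed relatives and signalling genes, and the 5 genes most correlated with each. CSN2 and WAP were measured. HGD, ESR1, PGR and PRLR had no value under their symbol here. The labels do not say whether the letters A to D link animals of different groups, and the main model used them as names only. Over 144 pairs of equal letter the deviations correlated with a median of 0.0453, and 52 pairs exceeded 0.1. For pairs of different letters the median was -0.0174. Such values cannot settle whether the letters were blocks. Alternatives were array weights, a filter on dim probe sets, other probe set rules, the replicate block, and leaving out each array. The planned search of promoter motifs was not done here. The raw intensities were not analysed here.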

Additional observations from a re-analysis of the deposited data

Results flagged for a closer look

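The ARG2 value of 9.90 in animal A of group B lay far from the other animals of its group: its gap to the nearest was 0.964 of the group's range, above Dixon's critical value for 4 samples. It was the only such value among 36 groups of 4 looked at for the 4 genes, and chance flags about 1 in 20 groups. The same library had the highest skeletal muscle markers of all arrays. Its part in the ARG2 level was not tested.

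The estrogen effect differed between haloperidol and bromocriptine in 7 genes of the pathway lists, by limma's test of the interaction. The difference was 1.13 for FABP6, -1.16 for ACSL1, 1.78 for ASS1, 1.38 for SRM, -0.51 for SAT1, 1.54 for TAT and -1.53 for CLDN5 on the log2 scale.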

How the results depend on the processing

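The 20 tests of progesterone and the 4 of sham for FABP7, ARG2, HPD and CLDN3 stayed short of the threshold in all 1118 alternatives run, with lowest adjusted p (limma) of 0.0897, for CLDN3 between HEP and HE, and 0.0566, for CLDN3 in sham. Of 1683 alternatives of the 36 described differences, 1681 kept the sign and 1672 moved by less than 1 SD of the gene within groups. Most alternatives left out 1 array, which changes a difference only if its groups hold that array. This agreement was thus largely fixed in advance. With array weights the FABP7 difference between HEP and BP was 3.22 (main 1.84), and without B A and BP A, chosen after seeing the data, 3.07, with an interaction under progesterone of 3.49. Leaving out 1 array gave 1.17 to 3.07 and 3.49 to 5.39. With the mean of its probe sets, ARG2 had an interaction of 1.96 (2.34 without progesterone), and 1.29 for HE against B, 1.60 against H, 2.03 against BE and 1.40 for HEP against HP. The progesterone shift of ARG2's estrogen change turned to 0.0499 with array weights, 0.18 with the mean of probe sets and 0.0150 without B A and BP A (leaving out 1 array, -0.47 to 0.48), and ARG2's average progesterone change was -0.00409 with the mean of probe sets (-0.0786 to 0.40). Leaving out 1 array also turned the sign of the average progesterone change in FABP7 (-0.35 to 0.13) and CLDN3 (-0.13 to 0.0703), the 3-way interaction in FABP7 (-1.61 to 0.29) and HPD (-0.58 to 0.46), and sham in HPD (-0.16 to 0.58). The cause was not tested.

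Pathway genes called in the interaction numbered 7, 11 with array weights, and 4 (without HEP A or HP B) to 12 (without BP B) when leaving out 1 array. With haloperidol they numbered 11, 18 with array weights, 7 without dim probe sets (fewer genes tested), and 9 to 17 (without BP A). Of 327 alternatives of the 7 called genes 291 kept the call. FABP6 lost it without each of 15 arrays, TAT without 12, CLDN5 without 7, and CLDN5 and SAT1 without B A and BP A together. The filter on dim probe sets removed FABP7, FABP6 and TAT. Probe sets called in the interaction numbered 1556, and 2399 with array weights, 706 with 1 probe set per gene, and 980 to 2545 when leaving out 1 array. With the replicate block they numbered 1763 and the pathway genes 9, and no call of the 4 genes changed. Of the 36 arrays 14 correlated best with their own letter.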
